A study of Schizosaccharomyces pombe with 24 samples.

Results

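Small RNA of Schizosaccharomyces pombe was examined here for fragments of the RNAs encoded by the mitochondrial genome. The members were all 36 features, of 6878 in the deposited tables, whose identifier begins with SPMIT. They comprised 25 tRNAs (SPMITTRNA followed by the amino acid) and 11 other features, SPMIT.01 to SPMIT.11. The libraries are labelled as 3 deletions and a wild type: ago1D for the Argonaute gene, clr4D for the histone methyltransferase gene clr4, dcr1D for the Dicer gene, and wt, which is 975 h+. The labels give each deletion as a NatMX6 replacement in 975 h+, a background that all 4 strains share. Cells were grown in EMM with adenine, histidine, leucine, lysine and uracil at 32 °C, washed into EMM without nitrogen and sampled at 0, 1, 2, 4, 10 and 24 h, conditions under which fission yeast stops dividing and becomes quiescent. Each strain and time had 1 library, 24 in all, from RNA of 20 to 30 nt cut from a gel. No strain and time had a replicate, and nothing in the labels ties or separates the cultures behind the times. Every p-value therefore measures the spread between these libraries only.

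Mitochondria keep a small circular genome of their own, transcribed by a dedicated polymerase into long precursors from which the tRNAs are cut out, which releases the mRNAs and rRNAs lying between them. Its protein genes make core subunits of the respiratory chain and the ATP synthase and 1 ribosomal protein, and its tRNAs and rRNAs serve translation inside the organelle. Fission yeast depends on this genome more than budding yeast does, since it rarely survives losing it. Argonaute and Dicer act in the RNA interference pathway of the nucleus and cytoplasm, which in this yeast guides Clr4 to chromatin. A whole tRNA is longer than the RNAs that were cut from the gel, so the counts on tRNA features are counts of fragments.

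The annotation supplied for this work (RefSeq, ASM294v3, not the ASM294v2 assembly the authors used) holds 39 mitochondrial genes, all on the plus strand: 25 tRNAs of 69 to 86 bases, 11 protein genes, 2 rRNAs and the RNA of RNase P. None of its entries carries an SPMIT identifier. A tRNA feature was matched to it by amino acid where the genome has a single tRNA for that amino acid, which held for 15 of 25. Arginine, isoleucine, leucine, methionine and serine have several tRNAs each, and their 10 features were not matched. The 11 other features are called by their identifiers, because no table at hand pairs them with genes. The sequences below are those of the matched tRNAs with the most and the fewest counts per length (aspartate, glycine, proline, phenylalanine and threonine) of cysteine and tyrosine, which were called lower in ago1D, and of glutamate, which changed least at 4 h. Each is the DNA sense strand of the RefSeq gene, 5′ to 3′, with the anticodon in capitals.
trnD(guc): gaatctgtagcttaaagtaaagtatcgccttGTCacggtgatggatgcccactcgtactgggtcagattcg
trnG(ucc): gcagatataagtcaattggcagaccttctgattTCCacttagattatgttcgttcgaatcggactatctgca
trnP(ugg): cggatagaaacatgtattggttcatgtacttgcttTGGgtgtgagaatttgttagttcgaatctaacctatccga
trnF(gaa): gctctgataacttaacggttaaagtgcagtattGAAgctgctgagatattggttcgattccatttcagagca
trnT(ugu): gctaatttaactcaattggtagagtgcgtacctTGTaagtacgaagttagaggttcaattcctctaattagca
trnE(uuc): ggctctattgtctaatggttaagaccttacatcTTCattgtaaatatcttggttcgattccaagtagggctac
trnC(gca): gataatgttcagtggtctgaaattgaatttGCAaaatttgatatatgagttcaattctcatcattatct
trnY(gua): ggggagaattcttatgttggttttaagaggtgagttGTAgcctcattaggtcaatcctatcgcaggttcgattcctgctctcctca

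In 18 of 18 clr4D, dcr1D and wt libraries the nuclear genes correlated best with their own labelled time in the other strains. Of 6 libraries labelled ago1D this held for 3: the one labelled 0 h was closest to 1 h, that labelled 1 h to 2 h and that labelled 2 h to 0 h. The counts of members called at each time and in ago1D, and the ago1D differences in shares, are therefore also given without those 3. The ago1 gene had 0 to 8 counts per library labelled ago1D, against 11 to 35 in wt. clr4 had 25 to 85 counts in libraries labelled clr4D, against 9 to 31 in wt, and dcr1 had 23 to 79 in those labelled dcr1D, against 16 to 37 in wt, so neither gene was lower under its own label. These counts are not scaled for depth, and median gene counts were 440544 in clr4D, 444043 in dcr1D and 320136 in wt. The counts do not bear out either label, and whether the 2 genes were deleted was not tested. The names clr4D and dcr1D are used below as labels only. Gene counts ran from 117245 to 2121235 per library, and 67.3% to 97.4% of reads had been set aside for low mapping quality before counting. Members were tested in edgeR with TMM scaling among 4220 genes, and a member was called at a Benjamini-Hochberg adjusted p below 0.05. TMM left the median gene at -0.01 on the log2 scale at 24 h against 0 h. Scaling by total counts put it at 1.01, with 2383 genes called higher and 104 lower at 24 h, against 636 and 588 with TMM.

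Fragments of the 25 mitochondrial tRNAs made up a large part of all gene counts in growing cells and lost most of that share by 24 h. With the values of each strain given in time order (0, 1, 2, 4, 10 and 24 h) here and below, they held 29.9, 22.5, 29.7, 19.04, 10.1 and 5.35% of gene counts in ago1D, 43.2, 41.4, 29.6, 37.9, 22.6 and 4.36 in clr4D, 43.0, 39.2, 28.5, 32.3, 11.5 and 6.46 in dcr1D, and 31.2, 41.0, 23.8, 34.5, 25.6 and 5.64 in wt. Every library up to 4 h lay between 19.04% and 43.2%, and every 24 h library between 4.36% and 6.46%, so the 24 h group did not overlap any earlier time. The 10 h libraries split: ago1D and dcr1D were at 10.1% and 11.5%, while clr4D and wt were still at 22.6% and 25.6%. Over the 4 strains the share averaged 5.45% ± 0.87 at 24 h and 36.8% ± 7.26 at 0 h (SD, n = 4 each).

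The 11 other mitochondrial features together held far less and followed another course. Their share was 1.75, 1.31, 2.20, 1.15, 1.01 and 0.558% of gene counts in ago1D, 3.36, 2.11, 1.70, 1.18, 1.39 and 0.925 in clr4D, 3.38, 2.42, 1.46, 1.32, 0.913 and 0.880 in dcr1D, and 4.14, 1.90, 1.70, 1.28, 0.940 and 2.26 in wt. In clr4D, dcr1D and wt it was highest at 0 h and had fallen by 1 h. In wt it was higher again at 24 h than at any time from 1 h on, which was not so in the libraries labelled ago1D, clr4D and dcr1D. The mean was 1.15% ± 0.75 at 24 h and 3.16% ± 1.01 at 0 h (SD, n = 4 each).

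**Figure D1:**
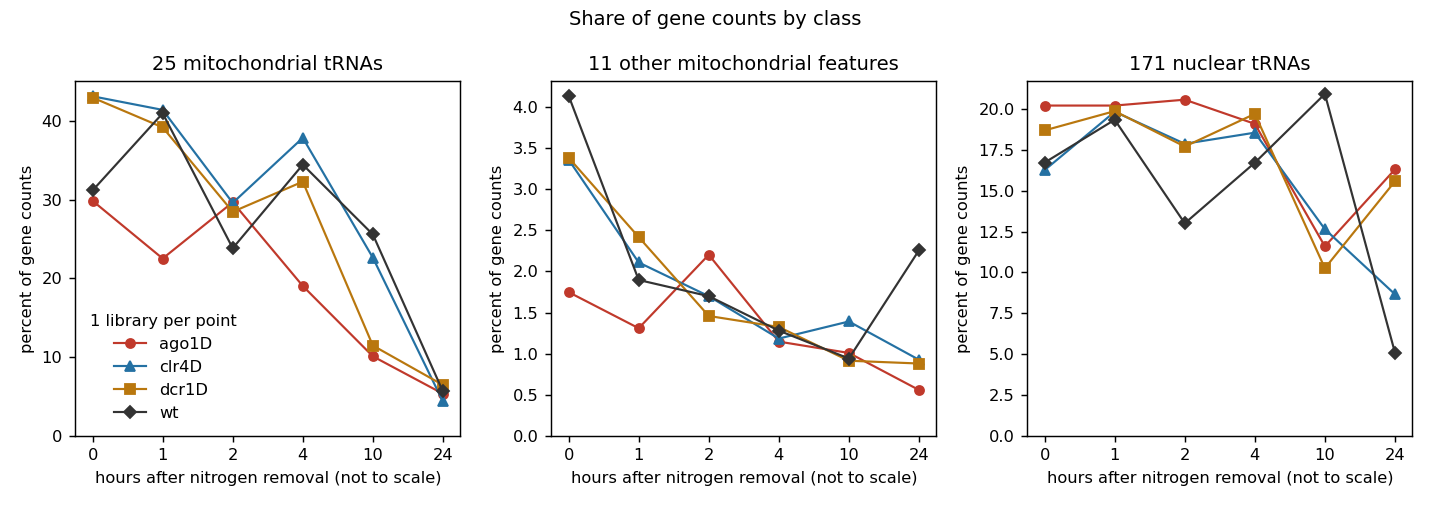
Percent of gene counts held by mitochondrial tRNAs, other mitochondrial features and nuclear tRNAs against hours after nitrogen removal, with 1 point per library and 1 line per strain. Mitochondrial tRNAs lie between 4.36% and 6.46% at 24 h in all 4 strains, against 29.9% to 43.2% at 0 h.

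Late times (10 and 24 h) were set against the 4 earlier times by exchanging the labels within each strain, an exact two-sided permutation test over 50625 arrangements whose smallest p is 1.98e-05. This test treats the times of a strain as exchangeable, although they are ordered and the late times are the same in every strain. With the 4 strains as units, an exact test of the tRNA share at 24 h against 0 h gave p = 0.125, the smallest possible. Late against early, the mitochondrial tRNA share changed by -1.78 on the log2 scale on average (SD 0.27 over 4 strains, lower in 4 of 4, exact permutation p = 3.95e-05, 5.93e-05 after adjustment over 3 tests). The difference was -1.76 in ago1D, -1.92 in clr4D, -2.04 in dcr1D and -1.41 in wt. The share of the other features changed by -0.86 (SD 0.30, lower in 4 of 4 strains, exact permutation p = 0.00294, adjusted 0.00294), with -1.05 in ago1D, -0.78 in clr4D, -1.15 in dcr1D and -0.48 in wt. Taken as a share of all reads in place of gene counts, that second difference was -1.26 and no longer passed. As a share of all reads mitochondrial tRNAs held 0.0718% to 0.149% at 24 h and 1.57% to 10.9% at 0 h. Reads of low mapping quality made up 96.0% to 96.5% of reads at 24 h and 67.3% to 93.9% at 0 h, and their part in the shares was not tested. In bulk libraries, fewer mitochondria per cell and less RNA per mitochondrion cannot be told apart, and a share falls too when other RNAs rise.

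Nuclear tRNA fragments gave a comparison within each library that does not rest on scaling. The ratio of mitochondrial to nuclear tRNA counts was 1.48, 1.11, 1.44, 0.997, 0.871 and 0.328 in ago1D, 2.65, 2.09, 1.66, 2.04, 1.79 and 0.503 in clr4D, 2.30, 1.97, 1.61, 1.64, 1.12 and 0.415 in dcr1D, and 1.86, 2.12, 1.83, 2.06, 1.22 and 1.11 in wt. Up to 10 h mitochondrial tRNAs outnumbered nuclear tRNAs in every library but those labelled ago1D 4 h and 10 h, and of the 24 h libraries that of wt alone had a ratio above 1. Many nuclear tRNAs come from near-identical gene copies, whose reads the mapping-quality filter can remove, so the ratio is one of counted reads and not of molecules. Late against early, the ratio changed by -1.14 on the log2 scale (SD 0.29 over 4 strains, lower in 4 of 4, exact permutation p = 3.95e-05, adjusted 5.93e-05). Without the single most abundant tRNA of each genome the change was -1.41. At 24 h the nuclear tRNA share was 16.3% in ago1D, 8.67% in clr4D, 15.6% in dcr1D and 5.10% in wt, so the high wt ratio of 1.11 came with the lowest nuclear share.

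Among single tRNAs, those for aspartate and glycine and SPMITTRNAARG.01, 1 of a pair of arginine features, had the most counts over all libraries. The aspartate tRNA had 44250, 39050, 45040, 26190, 14130 and 5109 CPM in ago1D, 76050, 59630, 48120, 49830, 35510 and 3666 in clr4D, 64050, 50820, 41020, 38330, 16200 and 5878 in dcr1D, and 56280, 65230, 42990, 48010, 39970 and 5884 in wt. It was the top mitochondrial tRNA of clr4D, dcr1D and wt at 0 h. For the glycine tRNA, whose gene follows that of aspartate, the values were 53520, 41890, 49180, 29480, 16290 and 6781 CPM in ago1D, 60070, 63550, 42080, 41940, 30620 and 4235 in clr4D, 55920, 52080, 31960, 37120, 16140 and 7128 in dcr1D, and 31290, 62590, 34340, 42480, 32070 and 3794 in wt. Glycine fragments in wt were lower at 0 h than at 1, 2, 4 or 10 h, unlike in the other strains. SPMITTRNAARG.01 gave 33180, 23150, 36130, 26470, 16510 and 3292 CPM in ago1D, 49320, 50590, 41630, 57640, 37360 and 2303 in clr4D, 49160, 44010, 34570, 41770, 12780 and 2453 in dcr1D, and 31930, 58100, 34770, 58960, 61200 and 3413 in wt. In wt it was highest at 10 h, where it was the top mitochondrial tRNA with 23.9% of their counts, and then dropped to 3413 CPM at 24 h.

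Per length, the 15 matched tRNAs spanned a wide range although they share 1 genome and 1 strand. The median over 24 libraries was 591642 CPM per kb for aspartate and 7257 for threonine, an 81.5-fold range. Of 6 neighbouring pairs of matched genes, the higher member exceeded the lower by 1.19-fold to 35.7-fold. The phenylalanine tRNA lies directly before aspartate and had 16593 CPM per kb, 35.7-fold less, while glycine, directly after, had 496250. Proline had 350195 and the glutamine tRNA next to it 23572, a 14.9-fold difference. In the run cysteine, valine and tyrosine the medians were 140835, 42386 and 20284. GC content, 27.5% to 47.9% among the 15, gave r = 0.25 (Spearman 0.30, n = 15 genes measured in the same 24 libraries) with the log2 level. The threonine tRNA, the lowest, still had 140 to 1363 CPM in every library.

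At 24 h all 25 tRNAs were called lower than at 0 h in edgeR, beside 13.9% of all 4220 genes called lower. Their median log2 fold change was -2.85 (range -4.79 to -1.54), against -0.01 for all genes tested. Of 51 nuclear tRNAs tested, 23 were lower and 3 higher, with a median of -1.45. In 23 of 25 every 24 h library had a lower CPM than every 0 h library, which held for 1.71% of all genes. Under total-count scaling 24 mitochondrial tRNAs were lower, with a median of -1.90 beside 1.01 for all genes, and scaling from nuclear features alone gave -2.86. Without the libraries labelled ago1D 0, 1 and 2 h, 25 tRNAs were lower at 24 h and 23 at 10 h. Over all 4735 genes tested there, 854 were lower at 24 h and 928 at 10 h. The aspartate tRNA had the smallest p: it had 5109, 3666, 5878 and 5884 CPM at 24 h in ago1D, clr4D, dcr1D and wt, against 44250, 76050, 64050 and 56280 CPM at 0 h (log2 fold change -4.46, SE 0.49, edgeR adjusted p = 2.37e-06). Next came the cysteine tRNA, with 10190, 5684, 9553, 5593, 2580 and 913 CPM in ago1D, 16910, 15520, 10020, 9984, 7104 and 1601 in clr4D, 16520, 15260, 9752, 10390, 3300 and 1571 in dcr1D, and 17460, 14550, 8974, 12960, 9683 and 3302 in wt. Its 24 h libraries, at 913 to 3302 CPM, overlapped the earlier ones only through the 10 h libraries of ago1D and dcr1D, at 2580 and 3300 CPM. Its log2 change passed the test (log2 fold change -4.14, SE 0.45, edgeR adjusted p = 2.52e-06). The alanine tRNA changed least, with 3846, 1838, 3195, 2074, 687 and 1015 CPM in ago1D, 1416, 3325, 1464, 3067, 1573 and 1591 in clr4D, 3569, 5660, 2293, 4369, 1475 and 2522 in dcr1D, and 2455, 4492, 1406, 3227, 2583 and 2773 in wt. Alanine fell in the fit (log2 fold change -1.54, SE 0.47, edgeR adjusted p = 0.017), although its CPM in clr4D and wt was higher at 24 h than at 0 h. Alanine was not called under total-count scaling (-0.54), without clr4D (-1.63) or without dcr1D (-1.46).

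At 10 h, 23 of 25 tRNAs were called lower than at 0 h and none higher, beside 15.7% of all genes called lower, with a median log2 fold change of -1.93 (range -2.80 to -1.14). The tyrosine tRNA had the smallest p, with 1558, 1085, 1737, 864, 378 and 554 CPM in ago1D, 3462, 2577, 1654, 1850, 1367 and 1255 in clr4D, 4233, 2603, 1993, 2126, 991 and 1240 in dcr1D, and 3347, 2308, 1874, 2010, 1533 and 1751 in wt, and its 10 h values were below all 0 h values (log2 fold change -2.42, SE 0.38, edgeR adjusted p = 0.000227). SPMITTRNASER.01 followed with 2071, 695, 2120, 950, 262 and 273 CPM in ago1D, 1920, 1954, 1387, 974, 723 and 351 in clr4D, 3880, 3022, 2362, 2518, 802 and 502 in dcr1D, and 4015, 2443, 2299, 2387, 1715 and 825 in wt (log2 fold change -2.64, SE 0.43, edgeR adjusted p = 0.000399). SPMITTRNALEU.02 changed least, with 13390, 18670, 12730, 12810, 7239 and 1740 CPM in ago1D, 18730, 22800, 35310, 51530, 29440 and 1354 in clr4D, 28960, 29000, 35030, 35710, 12390 and 2431 in dcr1D, and 9779, 17890, 20780, 24720, 9695 and 884 in wt. Its CPM was highest at 4 h in clr4D, dcr1D and wt, and at 10 h it was called lower (log2 fold change -1.14, SE 0.42, edgeR adjusted p = 0.0464). It was not called under total-count scaling (-0.30) or with any 1 strain left out (-1.46 to -0.70). SPMITTRNAARG.01 and SPMITTRNAMET.02 were not called at 10 h, at log2 fold changes of -1.30 and -1.29. In 13 of 25 tRNAs and 6 of 8 other features every 10 h library had a lower CPM than every 0 h library, beside 0.972% of all genes. Without the 10 h libraries of clr4D and dcr1D 6 tRNAs were called, beside 68 of 4242 genes lower. Without all dcr1D libraries 6 tRNAs were called (81 of 4004 genes lower), and without all clr4D libraries 12 (129 of 3989). Over all genes the lower calls thus fell as well, from 662 of 4220.

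Between 1 and 4 h few tRNAs were called, with median log2 fold changes of -0.16 at 1 h, -0.80 at 2 h and -0.70 at 4 h. At 1 h edgeR called none of 25 (beside 9.24% of all genes lower and 5.92% higher), with 1 at an unadjusted p below 0.05 and none by DESeq2. SPMITTRNALEU.01 had the smallest p at 1 h, with 9056, 7459, 15230, 7563, 4387 and 1399 CPM in ago1D, 23390, 9145, 6016, 15380, 8814 and 1008 in clr4D, 25280, 13330, 10910, 15020, 5906 and 1817 in dcr1D, and 24600, 9888, 4816, 16130, 11800 and 1799 in wt, so that it was high at 0 h in clr4D, dcr1D and wt and not in ago1D (log2 fold change -1.22, SE 0.50, edgeR adjusted p = 0.0988). Tyrosine came second at 1 h (log2 fold change -0.73, SE 0.36, edgeR adjusted p = 0.165). The valine tRNA changed least, with 2802, 1573, 1958, 1268, 721 and 1151 CPM in ago1D, 4420, 6440, 3574, 5638, 3274 and 1324 in clr4D, 6037, 6020, 3938, 4898, 1938 and 2426 in dcr1D, and 2914, 5332, 2512, 3908, 3398 and 667 in wt (log2 fold change 0.02, SE 0.46, edgeR adjusted p = 0.988). At 2 h none was called by edgeR (beside 0.474% of all genes lower and 2.06% higher) and 12 had an unadjusted p below 0.05. DESeq2 called 1 lower at 2 h, beside 108 of 4220 genes. Tyrosine (log2 fold change -1.03, SE 0.37, edgeR adjusted p = 0.117) and SPMITTRNALEU.01 (log2 fold change -1.40, SE 0.53, edgeR adjusted p = 0.132) had the smallest p, and SPMITTRNALEU.02 moved least (log2 fold change 0.05, SE 0.41, edgeR adjusted p = 0.967). Without the libraries labelled ago1D 0, 1 and 2 h, 17 tRNAs were called lower at 2 h, where calls rose over all genes too, to 15.5% lower. At 1 h that setting called 1 tRNA lower and 1 higher, beside 14.6% of all genes lower and 14.7% higher. In 3 of 25 tRNAs, and in none of the 8 other features, every 2 h library had a lower CPM than every 0 h library, beside 0.474% of all genes. Under total-count scaling the 1 h median turned to 0.02.

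At 4 h, 3 of 25 tRNAs were called lower and none higher, beside 6.02% of all genes lower and 3.44% higher. They were tyrosine (log2 fold change -1.39, SE 0.36, edgeR adjusted p = 0.0198), proline and SPMITTRNASER.01 (log2 fold change -1.36, SE 0.41, edgeR adjusted p = 0.0416). Proline fragments had 26730, 23440, 33130, 16860, 8620 and 5459 CPM in ago1D, 63270, 34650, 27800, 31570, 18640 and 6631 in clr4D, 54350, 34950, 28970, 25800, 9056 and 7780 in dcr1D, and 41220, 40260, 24650, 26960, 19590 and 8757 in wt, where the 4 h value was below the 0 h value in each strain (log2 fold change -1.39, SE 0.42, edgeR adjusted p = 0.0392). The glutamate tRNA moved least, with 18610, 8449, 12550, 11820, 5734 and 3113 CPM in ago1D, 11030, 27800, 14810, 23900, 11190 and 2866 in clr4D, 10750, 25480, 13640, 21650, 7310 and 4082 in dcr1D, and 8978, 24470, 10600, 25240, 12270 and 3360 in wt. In clr4D, dcr1D and wt glutamate was higher at 1 and 4 h than at 0 and 2 h, an up and down course that the ago1D libraries did not have (log2 fold change 0.23, SE 0.42, edgeR adjusted p = 0.788 at 4 h). Leaving out any of clr4D, dcr1D or wt left no tRNA called at 4 h, and leaving out ago1D gave 6. Over all genes the lower calls were 2, 0 and 8 without clr4D, dcr1D and wt, against 254 with all libraries. Without ago1D they were 583 of 3928. Without the libraries labelled ago1D 0, 1 and 2 h, 7 tRNAs were lower, beside 14% of all genes.

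The asparagine tRNA, the glutamine tRNA and SPMITTRNAILE.02 complete the 25. Asparagine averaged 958 ± 276 CPM at 24 h and 8084 ± 901 CPM at 0 h (SD, n = 4 strains each), glutamine 682 ± 383 and 2851 ± 444 CPM, and SPMITTRNAILE.02 1930 ± 361 and 5261 ± 823 CPM. All 3 were called lower at 10 and 24 h and none before, with 24 h log2 fold changes of -4.00, -3.17 and -2.43. SPMITTRNAILE.02 averaged 7743 ± 3316 CPM at 1 h, above its 0 h level but not past the test (log2 fold change 0.35, SE 0.37).

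**Figure D2:**
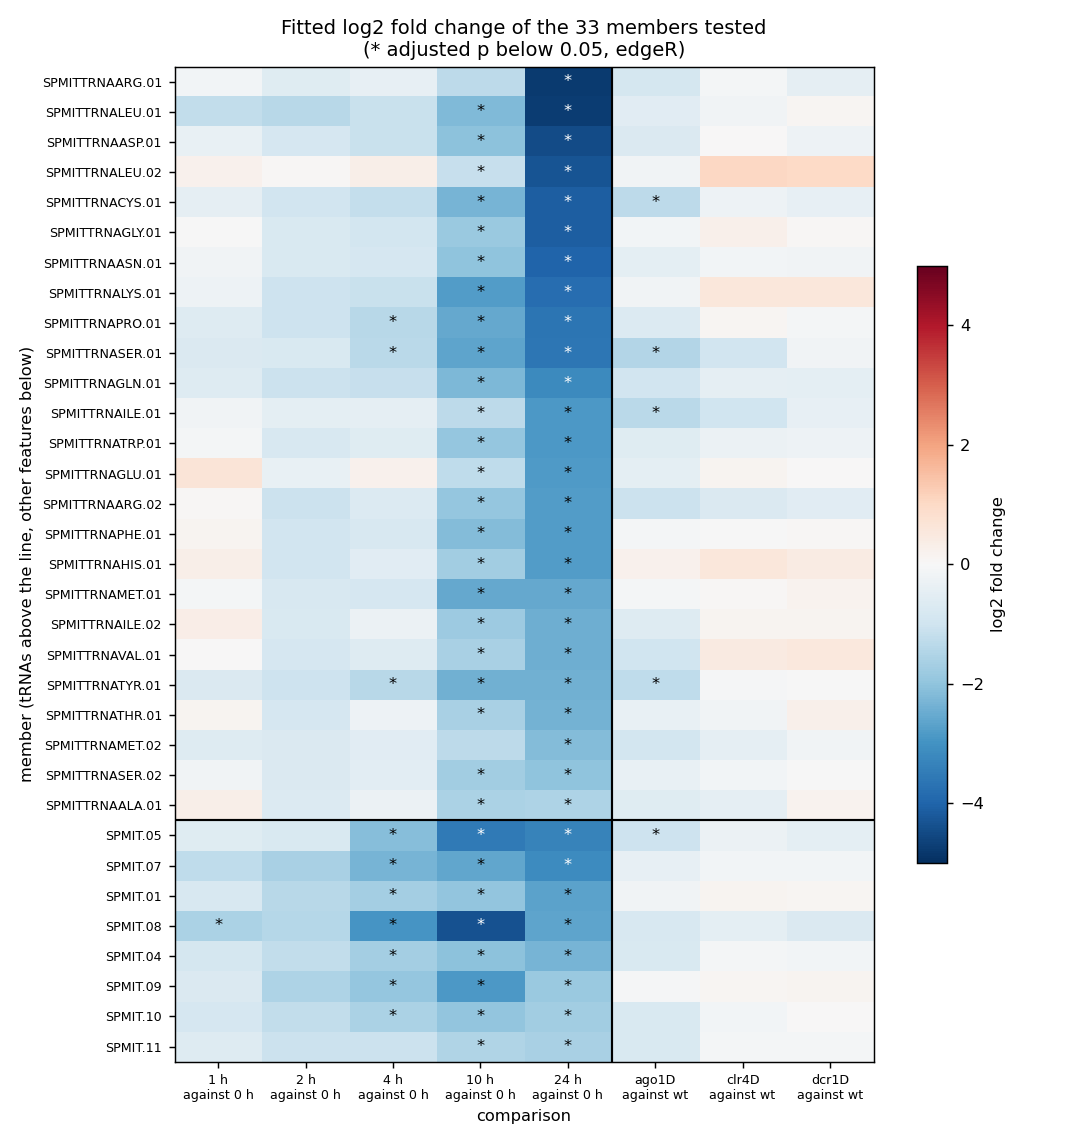
Heat map of the fitted log2 fold change of the 33 members tested (rows) in 8 comparisons (columns), with an asterisk where the adjusted p was below 0.05. All 25 tRNAs carry an asterisk at 24 h and 3 at 4 h, while 7 of 8 other features carry one at 4 h.

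The more abundant tRNAs changed more by 24 h. The 6 with the most counts at 1, 2 and 4 h (aspartate, glycine, SPMITTRNAARG.01, proline, lysine and SPMITTRNALEU.02) had 24 h log2 fold changes of -4.79 to -3.67. The 6 with the fewest (threonine, SPMITTRNAARG.02, SPMITTRNASER.02, phenylalanine, SPMITTRNASER.01 and tyrosine) had -3.63 to -2.02. Across the 25 tRNAs the mean log2 CPM at 1, 2 and 4 h and the log2 fold change at 24 h gave r = -0.69 (Spearman -0.68, n = 25 tRNAs that share all libraries). For 51 nuclear tRNAs r was 0.24, over a wider range of levels. Their mean log2 (CPM + 1) at those times ran from 2.01 to 15.97. That of the mitochondrial tRNAs, in log2 CPM, ran from 9.33 to 15.46. The r values therefore cover unlike ranges, and none was computed over a shared range. Within a library the SD of log2 CPM over the 25 tRNAs was 1.19 to 1.57 at 24 h, against 1.74 to 2.11 in all earlier libraries. GC content gave r = -0.26 with the 24 h change over the 15 matched tRNAs.

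**Figure D3:**
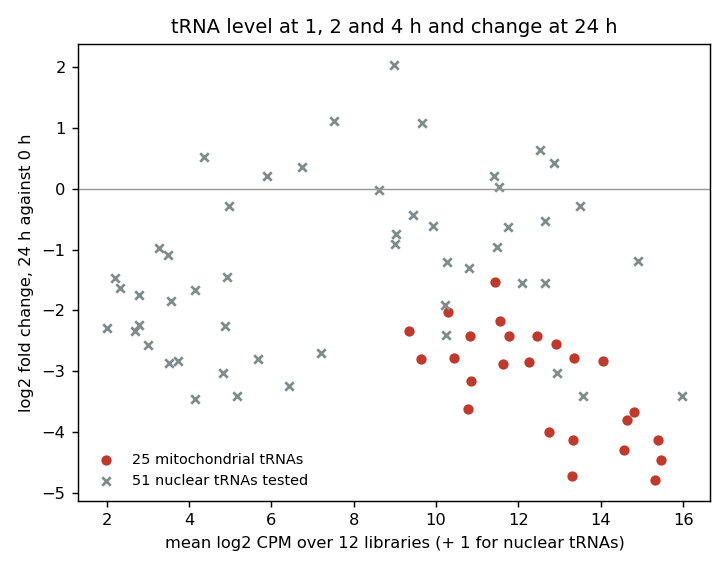
Mean log2 CPM at 1, 2 and 4 h (x axis, 12 libraries) against the log2 fold change at 24 h (y axis) for 25 mitochondrial tRNAs and 51 nuclear tRNAs. The mitochondrial tRNAs slope downward (r = -0.69). The nuclear ones (r = 0.24) reach down to 2.01, below the lowest mitochondrial tRNA at 9.33, so the r values cover unlike ranges.

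Of the 11 other mitochondrial features, SPMIT.02, SPMIT.03 and SPMIT.06 had no count in any of 24 libraries. With 11232626 gene counts in all, a count of 0 allows up to 0.267 CPM over the libraries together and up to 25.6 CPM in the shallowest one, for counting error only. Reads set aside as ambiguous or for low mapping quality are not in these counts. Whether such reads came from SPMIT.02, SPMIT.03 and SPMIT.06 was not tested, so a count of 0 does not show that these RNAs were absent. The other 8 passed the low-count filter. SPMIT.01 and SPMIT.05 had the most counts, which are not compared per length here. SPMIT.01 had 5067, 2824, 6241, 3734, 4651 and 1424 CPM in ago1D, 8254, 5912, 3288, 3465, 4747 and 2080 in clr4D, 8829, 6811, 3032, 3625, 2925 and 2159 in dcr1D, and 9564, 4524, 3067, 2973, 2400 and 4280 in wt. Its level was highest at 0 h in clr4D, dcr1D and wt, and at the library labelled 2 h in ago1D. SPMIT.05 had 4315, 3797, 4836, 1984, 1015 and 716 CPM in ago1D, 7868, 6010, 6309, 2316, 1430 and 1255 in clr4D, 7530, 5838, 5271, 2489, 824 and 1015 in dcr1D, and 10320, 6116, 6506, 2806, 1259 and 3407 in wt. It was lowest at 10 or 24 h in every strain.

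At 1 h edgeR called 1 of these 8 features lower, beside 9.24% of all genes. It was SPMIT.08, with 1422, 2223, 2817, 948, 356 and 734 CPM in ago1D, 5451, 1560, 2171, 772, 416 and 1052 in clr4D, 4652, 1678, 1710, 738, 263 and 951 in dcr1D, and 7150, 1397, 2169, 893, 601 and 4101 in wt (log2 fold change -1.59, SE 0.45, edgeR adjusted p = 0.0268). Its 1 h values were below the 0 h value in clr4D, dcr1D and wt and above it in ago1D. At 2 h none of 8 was called by edgeR, beside 0.474% of all genes lower and 2.06% higher, although 8 had an unadjusted p below 0.05. DESeq2 called 7 of them at 2 h, all lower, beside 108 of 4220 genes lower. The smallest p was that of SPMIT.07, which had 1056, 717, 1631, 586, 596 and 427 CPM in ago1D, 2497, 1068, 668, 639, 926 and 405 in clr4D, 2700, 1587, 580, 740, 596 and 321 in dcr1D, and 3034, 943, 831, 709, 643 and 984 in wt (log2 fold change -1.63, SE 0.48, edgeR adjusted p = 0.0614). At 4 h, 7 of 8 were lower and none higher, beside 6.02% of all genes lower and 3.44% higher. The median log2 fold change of the 8 was -1.82 (range -2.97 to -1.07), beside -0.70 for the tRNAs. SPMIT.05 had 1984, 2316, 2489 and 2806 CPM at 4 h in ago1D, clr4D, dcr1D and wt, against 4315, 7868, 7530 and 10320 CPM at 0 h, with no overlap (log2 fold change -2.11, SE 0.33, edgeR adjusted p = 0.000854). In 5 of 8, and in no tRNA, every 4 h library had a lower CPM than every 0 h library, beside 0.664% of all genes. Without the libraries labelled ago1D 0, 1 and 2 h the counts called lower were 5 at 1 h, 8 at 2 h and 8 at 4 h, beside 14.6%, 15.5% and 14% of all genes. Leaving out clr4D or dcr1D left none of the 8 called at 4 h (2 and 0 genes lower in all), and leaving out wt left 2 (8 genes lower in all). At 1 h, leaving out any of clr4D, dcr1D or wt left none of the 8 called, and 0 genes in all. DESeq2 on all libraries called 2 of the 8 at 1 h, beside 419 of 4220 genes lower.

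At 10 and at 24 h all 8 were called lower than at 0 h, beside 15.7% and 13.9% of all genes. This also held without the libraries labelled ago1D 0, 1 and 2 h, beside 928 and 854 of 4735 genes lower. In 3 of 8 every 24 h library had a lower CPM than every 0 h library, beside 1.71% of all genes. That was fewer than the 6 of 8 at 10 h, beside 0.972% of all genes. The median log2 fold change was -2.31 at 10 h (range -4.37 to -1.50) and -2.49 at 24 h (range -3.34 to -1.63). SPMIT.05 had the smallest p at both times (log2 fold change -3.52, SE 0.35, edgeR adjusted p = 2.36e-06 at 10 h; log2 fold change -3.34, SE 0.35, edgeR adjusted p = 2.28e-06 at 24 h). SPMIT.08 was lowest at 10 h, at 356, 416, 263 and 601 CPM in ago1D, clr4D, dcr1D and wt, against 1422, 5451, 4652 and 7150 CPM at 0 h (log2 fold change -4.37, SE 0.51, edgeR adjusted p = 8.22e-06). By 24 h it stood at 734, 1052, 951 and 4101 CPM, higher than at 10 h in each strain (log2 fold change -2.65, SE 0.47, edgeR adjusted p = 0.00027, against 0 h). SPMIT.11 and SPMIT.10 changed least by 24 h, at -1.63 and -1.76, with 2820 ± 1642 and 924 ± 614 CPM at 24 h, against 4173 ± 954 and 1487 ± 428 CPM at 0 h (SD, n = 4 strains each). In wt SPMIT.11 had 5148 CPM at 24 h and 5029 CPM at 0 h, so that it was not lower there. SPMIT.04 averaged 1388 ± 898 CPM at 24 h and 3334 ± 1022 CPM at 0 h, at -2.32. Under total-count scaling 5 of 8 were called at 24 h, beside 2.46% of all genes lower, with a median of -1.42. Without clr4D 5 of 8 were called at 24 h, beside 241 of 3989 genes lower. Without dcr1D 4 of 8 were called at 10 h, beside 81 of 4004 genes lower. At 24 h these features made up 9.44% of mitochondrial counts in ago1D, 17.5% in clr4D, 11.99% in dcr1D and 28.6% in wt.

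**Figure D4:**
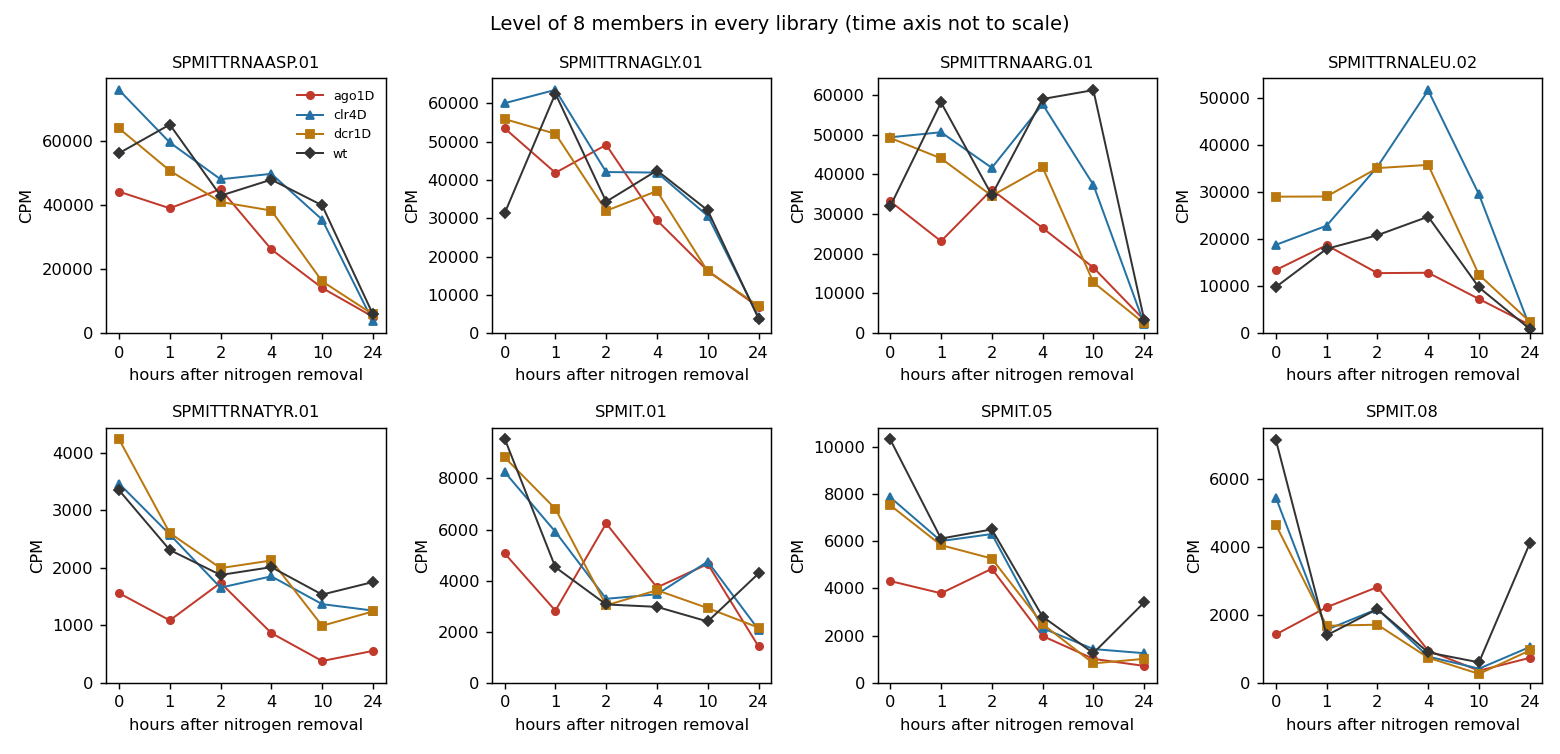
Level of 5 tRNAs and 3 other mitochondrial features in CPM (y axis) at each time (x axis, not to scale), with 1 point per library and 1 line per strain. SPMITTRNAARG.01 stays high to 10 h in wt (61200 CPM), and SPMIT.05 and SPMIT.08 are higher at 24 h in wt (3407 and 4101 CPM) than in the libraries labelled ago1D, clr4D and dcr1D.

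Between strains, members moved most in the libraries labelled ago1D. With strains matched by time, 4 of 25 tRNAs were called lower in ago1D than in wt and none higher, beside 1.26% of all genes called lower and 3.06% higher. The median over the tRNAs was -0.61 and 24 of 25 were negative, against a median of -0.02 for all genes and -0.11 for nuclear tRNAs. The 4 were tyrosine (log2 fold change -1.28, SE 0.30, edgeR adjusted p = 0.0162), SPMITTRNASER.01 (log2 fold change -1.47, SE 0.35, edgeR adjusted p = 0.018), cysteine (log2 fold change -1.30, SE 0.34, edgeR adjusted p = 0.0286) and SPMITTRNAILE.01. SPMITTRNAILE.01 had 3104, 1959, 2920, 1794, 795 and 640 CPM in ago1D, 2349, 2647, 2171, 2224, 2178 and 613 in clr4D, 3771, 4269, 3279, 4717, 1610 and 1122 in dcr1D, and 3673, 4744, 3777, 6097, 5506 and 1185 in wt, below wt at 6 of 6 times (log2 fold change -1.34, SE 0.35, edgeR adjusted p = 0.0285). Tyrosine and SPMITTRNASER.01 were likewise lower at 6 of 6 times. This was not particular to ago1D: in clr4D SPMITTRNAILE.01 and SPMITTRNASER.01 were also below wt at 6 of 6 times, and tyrosine at 4. In dcr1D SPMITTRNAILE.01 was below wt at 5 times, SPMITTRNASER.01 at 3 and tyrosine at 2. The phenylalanine tRNA moved least, with 1577, 2555, 1669, 1003, 412 and 469 CPM in ago1D, 1446, 1701, 893, 1607, 610 and 435 in clr4D, 2024, 2138, 1130, 1296, 494 and 444 in dcr1D, and 1424, 1861, 700, 1259, 939 and 524 in wt (log2 fold change -0.10, SE 0.32, edgeR adjusted p = 0.917). Of the 8 other features 1 was called lower, SPMIT.05, which was below wt at 6 of 6 times, as it was in dcr1D (log2 fold change -1.05, SE 0.27, edgeR adjusted p = 0.025). The median over the 8 was -0.75.

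The calls in ago1D depended on which libraries entered. Without those labelled 0, 1 and 2 h, 8 tRNAs and 4 other features were called lower, beside 2.49% of all genes. Without the times 1, 4, 10 or 24 h no member was called, and a fit of ago1D and wt alone or without a term for time called none. Over all genes the lower calls fell as well, to 31, 17, 23 and 22 without those times, 3 with ago1D and wt alone and 17 without a term for time, against 53. In these 6 fits the log2 fold change was -1.36 to -1.01 for tyrosine and -1.57 to -1.10 for SPMITTRNASER.01.

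The mitochondrial to nuclear tRNA ratio was lower in ago1D than in wt at 6 of 6 times, with log2 differences of -1.75 to -0.34. The mean difference was -0.82 (SD 0.55, exact two-sided sign-flip test over 6 matched times, p = 0.031, the smallest this design allows, and 0.281 after adjustment over 9 tests). The tRNA share of gene counts differed by -0.48 (SD 0.63, lower at 5 of 6 times, exact permutation p = 0.156, adjusted 0.492), and the share of the other features by -0.58 (SD 0.90, lower at 4 of 6, exact permutation p = 0.188, adjusted 0.492). Over the 3 times from 4 h on, the ratio differed by -1.10, the tRNA share by -0.76 and the share of the other features by -0.69, where an exact test on 3 pairs cannot go below p = 0.25.

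**Figure D5:**
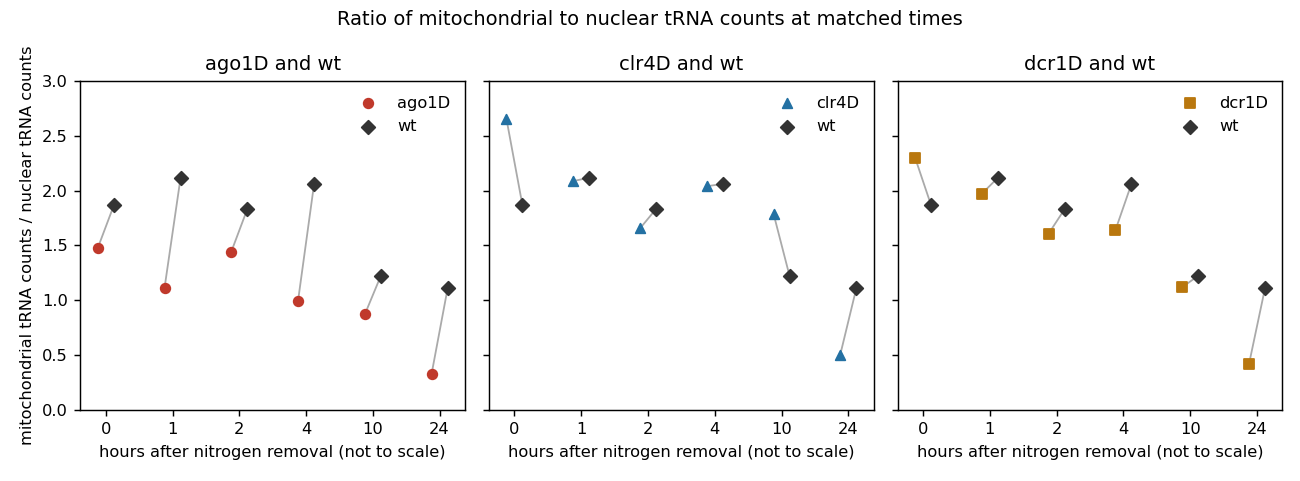
Ratio of mitochondrial to nuclear tRNA counts (y axis) at each time (x axis, not to scale), the libraries labelled ago1D, clr4D or dcr1D left of wt, with a grey line joining the 2 libraries of a time. ago1D lies below wt at 6 of 6 times, clr4D at 4 and dcr1D at 5.

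In the libraries labelled clr4D no member was called against wt, beside 0.0711% of all genes lower and 0.829% higher, with 3 tRNAs and no other feature at an unadjusted p below 0.05, and none by DESeq2. The tRNA median was -0.11. SPMITTRNAILE.01, whose levels are given above, had the smallest p (log2 fold change -1.01, SE 0.33, edgeR adjusted p = 0.233) and was lower at 6 of 6 times. SPMITTRNALEU.02 was second, higher than wt at 6 of 6 times (log2 fold change 1.03, SE 0.34, edgeR adjusted p = 0.233), with 51530 CPM in clr4D and 24720 CPM in wt at 4 h. Of the other features SPMIT.08 came first (log2 fold change -0.50, SE 0.37, edgeR adjusted p = 0.717), and aspartate was the tRNA that moved least (log2 fold change 0.02, SE 0.34, edgeR adjusted p = 0.992). The share of gene counts in mitochondrial tRNAs differed by 0.06 (SD 0.31, exact sign-flip p = 0.656, adjusted 0.844, 6 matched times), the ratio to nuclear tRNAs by -0.04 (SD 0.61) and the share of other features by -0.16 (SD 0.62). As shares of all reads the tRNA difference was 0.61, past an unadjusted p of 0.05, and that of the other features turned to 0.38.

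In the libraries labelled dcr1D edgeR likewise called no member, beside 0.664% of all genes lower and 1.87% higher, with 1 tRNA and no other feature at an unadjusted p below 0.05. DESeq2 called 1 tRNA higher, beside 124 of 4220 genes higher. SPMITTRNALEU.02 again had the smallest p, higher than wt at 6 of 6 times (log2 fold change 0.98, SE 0.34, edgeR adjusted p = 0.125). The lysine tRNA was second, with 26040, 16650, 25900, 14270, 5416 and 5936 CPM in ago1D, 46040, 48510, 24590, 31080, 11430 and 3973 in clr4D, 46880, 40200, 26120, 27850, 8140 and 7529 in dcr1D, and 29440, 34160, 15100, 22550, 10760 and 2206 in wt; it was higher than wt at 5 of 6 times in dcr1D and at 6 of 6 in clr4D (log2 fold change 0.55, SE 0.39, edgeR adjusted p = 0.458 in dcr1D). SPMIT.08 led the other features (log2 fold change -0.71, SE 0.37, edgeR adjusted p = 0.311), and tyrosine moved least (log2 fold change -0.01, SE 0.29, edgeR adjusted p = 0.996). The tRNA share differed by -0.07 (SD 0.57, exact sign-flip p = 0.906, adjusted 0.906), the ratio by -0.31 (SD 0.58, lower at 5 of 6 times) and the share of other features by -0.25 (SD 0.59). As shares of all reads both turned, to 0.76 for tRNAs and 0.58 for the other features. The clr4D and dcr1D comparisons share the wt libraries.

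Within single strains, 2 late libraries against 4 early ones gave few calls. In ago1D none of 33 members was called and no gene of 4220 (0%). An unadjusted p below 0.05 was found for 23 tRNAs and 4 other features. These are not calls, and the share of all genes at that threshold is not given here. The threonine tRNA, with 609, 1363, 470, 556, 140 and 188 CPM in ago1D, 449, 552, 479, 869, 293 and 257 in clr4D, 1048, 774, 605, 855, 316 and 315 in dcr1D, and 508, 589, 367, 734, 685 and 259 in wt, had one of the 2 smallest p there (log2 fold change -2.64, SE 0.62, edgeR adjusted p = 0.434). The other was that of SPMITTRNAARG.02, with 719, 1788, 565, 399, 174 and 154 CPM in ago1D, 782, 699, 587, 879, 411 and 242 in clr4D, 1354, 931, 580, 936, 271 and 219 in dcr1D, and 782, 1025, 638, 1248, 1055 and 603 in wt (log2 fold change -2.87, SE 0.69, edgeR adjusted p = 0.439). SPMIT.05 led the other features (log2 fold change -2.66, SE 0.75, edgeR adjusted p = 0.659). Histidine, with 12830, 6858, 9203, 8734, 5794 and 4913 CPM in ago1D, 12660, 20000, 7495, 14420, 8715 and 2303 in clr4D, 13970, 17560, 9705, 10850, 4179 and 2522 in dcr1D, and 6450, 15800, 5477, 8889, 5340 and 2704 in wt, moved least (log2 fold change -1.32, SE 0.72, edgeR adjusted p = 0.894). In clr4D 2 tRNAs and 1 other feature were called lower, beside 0.213% of genes. They were SPMITTRNAMET.01, with 8363, 5576, 10180, 5368, 2670 and 3804 CPM in ago1D, 9680, 11090, 6097, 7969, 2765 and 1976 in clr4D, 9804, 11050, 6749, 8442, 2153 and 4173 in dcr1D, and 9551, 11100, 5033, 7629, 3406 and 2328 in wt (log2 fold change -2.73, SE 0.67, edgeR adjusted p = 0.0379), the tryptophan tRNA (log2 fold change -2.40, SE 0.61, edgeR adjusted p = 0.0438) and SPMIT.05 (log2 fold change -2.95, SE 0.76, edgeR adjusted p = 0.0458). SPMITTRNAMET.02 moved least (log2 fold change -1.23, SE 0.67, edgeR adjusted p = 0.349).

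In dcr1D 7 tRNAs and 1 other feature were called lower, beside 0.427% of genes. Tryptophan, with 5510, 3716, 4910, 3578, 1789 and 1424 CPM in ago1D, 5349, 6183, 4003, 5060, 2265 and 1166 in clr4D, 5365, 6916, 3731, 5951, 1742 and 1453 in dcr1D, and 5741, 6091, 3743, 6077, 4438 and 1937 in wt, had the smallest p (log2 fold change -2.55, SE 0.61, edgeR adjusted p = 0.0274), then SPMITTRNAARG.02 (log2 fold change -2.78, SE 0.68, edgeR adjusted p = 0.0274), and SPMIT.05 was the other feature called (log2 fold change -3.37, SE 0.78, edgeR adjusted p = 0.0219). SPMITTRNASER.02 moved least, with 1427, 1116, 1374, 1063, 556 and 623 CPM in ago1D, 1214, 1253, 939, 1428, 787 and 529 in clr4D, 1461, 1457, 1130, 1361, 577 and 807 in dcr1D, and 1434, 1578, 932, 1485, 969 and 698 in wt (log2 fold change -1.75, SE 0.50, edgeR adjusted p = 0.0611). In wt no member was called, beside 0.0237% of genes lower and 0.0948% higher, with 8 tRNAs and 1 other feature at an unadjusted p below 0.05. SPMITTRNAMET.01 (log2 fold change -2.0025, SE 0.64, edgeR adjusted p = 0.333) and lysine (log2 fold change -2.32, SE 0.82, edgeR adjusted p = 0.405) led, and SPMIT.05 led the other features (log2 fold change -2.07, SE 0.72, edgeR adjusted p = 0.403). SPMITTRNAMET.02 moved least, with 3137, 1587, 4369, 2024, 949 and 1305 CPM in ago1D, 3821, 2464, 2102, 3885, 3378 and 1122 in clr4D, 4305, 4051, 2797, 5040, 1931 and 2127 in dcr1D, and 4788, 3549, 1869, 4567, 5476 and 2561 in wt. Its wt level at 10 h was the highest of that strain (log2 fold change -0.28, SE 0.64, edgeR adjusted p = 0.941). The tRNA median was -2.23 in ago1D, -2.26 in clr4D, -2.64 in dcr1D and -1.35 in wt. Leaving out 0, 1, 2 or 4 h left no tRNA called in clr4D. Over all genes the lower calls there were 2, 1, 1 and 5, against 9 with all times. In dcr1D no tRNA was called without 0 h or 1 h and 3 without 4 h, beside 7, 3 and 11 genes lower, against 18. Leaving out 10 h or 24 h left 1 late library per strain, so no calls are given there. Without 10 h the log2 fold change of SPMIT.05 was -3.19 in clr4D and -3.21 in dcr1D, and without 24 h -2.72 and -3.51.

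Tested directly in edgeR, no member's late change was called different from that of wt under any of the labels ago1D, clr4D and dcr1D (0% of all genes called in each of the 3 tests), with 2, 0 and 2 tRNAs and no other feature at an unadjusted p below 0.05 in ago1D, clr4D and dcr1D. SPMITTRNAARG.02 and threonine had the smallest p in all 3. For SPMITTRNAARG.02 the difference was -2.31 (SE 0.85) in ago1D, -1.42 (SE 0.83) in clr4D and -2.23 (SE 0.84) in dcr1D. For threonine it was -2.07 (SE 0.77) in ago1D, -1.31 (SE 0.75) in clr4D and -1.61 (SE 0.75) in dcr1D. Among other features SPMIT.09 led in ago1D, with 46.9, 273, 89.0, 77.2, 36.0 and 8.53 CPM in ago1D, 159, 68.2, 54.1, 70.4, 46.0 and 114 in clr4D, 240, 90.6, 61.6, 45.9, 38.9 and 69.5 in dcr1D, and 161, 56.7, 86.9, 47.5, 37.0 and 153 in wt (log2 fold change -2.02, SE 1.28, edgeR adjusted p = 1), SPMIT.08 in clr4D, at -1.78 (SE 1.41), and SPMIT.05 in dcr1D, at -1.29 (SE 0.93). The least different were lysine in ago1D, at -0.07 (SE 1.03), SPMITTRNALEU.02 in clr4D, at 0.32 (SE 1.28), and SPMITTRNAMET.01 in dcr1D, at -0.30 (SE 0.83). The directions of these 3 turned under other settings. The median difference over the tRNAs was -0.98 in ago1D, -0.82 in clr4D and -1.35 in dcr1D, with the same wt libraries in all 3.

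Nuclear genes whose products work with the mitochondrial genome were called less uniformly. Of 34 tested genes for respiratory chain and ATP synthase subunits, 11 were lower and 2 higher at 24 h than at 0 h, with a median of -0.44 beside -0.01 for all genes, of which 13.9% were lower and 15.1% higher. Under total-count scaling 3 were lower and 13 higher, with a median of 0.57 beside 1.01, and of all genes 2.46% were lower and 56.5% higher. The leading ones were qcr1, a subunit of complex III (log2 fold change -1.93, SE 0.24, edgeR adjusted p = 6.5e-06), and nde1, an external NADH dehydrogenase (-1.80, SE 0.25, edgeR adjusted p = 2.23e-05). cox5, a subunit of cytochrome oxidase, was higher at 2 h (1.66, SE 0.34, edgeR adjusted p = 0.0114). Of 29 tested factors of mitochondrial transcription, RNA processing and translation, 7 were lower and 2 higher at 24 h (median -0.32), against the same 13.9% and 15.1% of all genes. Under total-count scaling 2 were lower and 12 higher (median 0.71), a smaller share higher than the 56.5% of all genes. The lower ones included ppr7, a pentatricopeptide repeat protein (-2.18, SE 0.38, edgeR adjusted p = 0.000226), and mef1, a translation elongation factor (-1.99, SE 0.37, edgeR adjusted p = 0.000432). In the strain comparisons these lists had at most 1 called gene each: msy1 was higher in ago1D (0.66, SE 0.18, edgeR adjusted p = 0.0357) and ppr5 in dcr1D (0.81, SE 0.16, edgeR adjusted p = 0.00615).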

How the data were processed

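The deposited files hold raw counts per transcript, 1 file per library. Per the submitters' processing notes, cutadapt (no version named), Bowtie2 2.1.0 and HTSeq 0.6.1 were used with the ASM294v2 genome. How the counting treated strand is not stated, so a gene and its antisense partner may not be told apart. Each file ends with 5 summary lines that name no gene. They held 74.8% to 98.7% of reads (low mapping quality 67.3% to 97.4%, no feature 0.459% to 7.08%, ambiguous 0.0476% to 0.957%) and entered neither library sizes nor tests. CPM is the count scaled to 1000000 gene counts per library.

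Counts were tested with edgeR 4.0.16 (quasi-likelihood F test, TMM, filterByExpr with a minimum count of 10, R 4.3.3) on 4220 genes. One model had strain and time as terms, with a biological coefficient of variation of 0.297. The other had late (10 and 24 h) and early times by strain, with 0.391. P-values were adjusted over all genes by the Benjamini-Hochberg method. Counts of members at an unadjusted p below 0.05 have no share of all genes beside them and are not calls. Shares were compared by exact permutation. Alternatives were DESeq2 1.42.0, total-count, DESeq2 and nuclear-only scaling, no filter, other model terms, shares of all reads, and left-out libraries. Intervals and floors cover counting error only. Tested on simulated data for 4220 genes, the ago1D against wt comparison recovered 57% of 2-fold and 97% of 4-fold changes with 9 false calls, and the 24 h against 0 h comparison 23% and 82% with 5 false calls. No libraries were identical.

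Levels in every library are given for the 3 tRNAs and 2 other features with the most summed CPM. In each comparison the same was done for the 2 tRNAs and 1 other feature of smallest p and the tRNA of least change. At most 2 nuclear genes of smallest p per list are named. Members and lists were chosen with earlier results of these data known. Sequences come from RefSeq, ASM294v3, matched by amino acid.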

Additional observations from a re-analysis of the deposited data

Results flagged for a closer look

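Of 30 groups of 4 libraries, 2 held a library whose gap to its nearest neighbour was large for the group's range by Dixon's test, where chance flags about 1 in 20 groups. The mitochondrial tRNA share of the library labelled ago1D 1 h was 22.5% of gene counts, while clr4D, dcr1D and wt had 41.4%, 39.2% and 41.0% at 1 h. In the same library the ratio of mitochondrial to nuclear tRNA counts was 1.11, against 2.09, 1.97 and 2.12 in clr4D, dcr1D and wt. This library's nuclear genes were closest to the 2 h libraries of the other strains (r = 0.38), and the part of its time label in these values was not tested.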

How the results depend on the processing

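Strains were matched by time, and no replicate number could serve as a block, since each strain and time has 1 library. For 104 results 1228 alternative values were computed, of which 1011 kept direction and call. Among single members 73 values lost and 14 gained a call with the direction kept. Depth was lowest at 24 h, where a library had 6271 to 12087 mitochondrial tRNA counts and 654 to 4263 counts of the other mitochondrial features.

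Without the libraries labelled ago1D 0, 1 and 2 h, the tRNAs called lower were 8 in ago1D, 1 in clr4D, 1 at 1 h (and 1 higher), 17 at 2 h and 7 at 4 h, and the other features called were 4 in ago1D, 5 at 1 h and 8 at 2 h. Of all 4735 genes tested in that setting, 118 were lower in ago1D and 28 in clr4D. At 1 h 689 were lower and 694 higher, and at 2 and 4 h 734 and 662 were lower. Late against early, an alternative chosen after seeing the data, that setting gave 1 tRNA and 0 other features in clr4D and 4 tRNAs in dcr1D. Of all genes 5 were lower in clr4D and 9 in dcr1D. Without the clr4D and dcr1D libraries of 10 h, 6 tRNAs were called at 10 h, beside 68 of 4242 genes lower. Late against early, that setting leaves 1 late library in clr4D and in dcr1D, so no calls are given for it. No time term, or only the 12 libraries compared, left 0 tRNAs and 0 others in ago1D. DESeq2 called 1 tRNA higher in dcr1D, 2 others at 1 h, 1 tRNA and 7 others at 2 h, and 5 tRNAs at 4 h. Over all genes DESeq2 called 419 lower at 1 h, 108 at 2 h and 306 at 4 h. With edgeR these were 390, 20 and 254. In dcr1D DESeq2 called 124 genes higher, against 79 with edgeR. Total-count scaling called 1 other at 2 h, 5 others at 24 h, and late against early 8 tRNAs in clr4D and 11 in dcr1D. Late against early it called 942 genes higher and 11 lower in clr4D, against 89 and 9 with TMM. In dcr1D it called 419 higher and 15 lower, against 88 and 18 with TMM. Over all genes it gave, higher and lower, 2217 and 130 at 10 h against 567 and 662 with TMM, 543 and 77 at 4 h against 145 and 254, 361 and 17 at 2 h against 87 and 20, 130 and 22 in ago1D against 129 and 53, and 34 and 20 in dcr1D against 79 and 28.

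As a share of all reads the mitochondrial tRNA difference was 0.61 in clr4D, past the unadjusted threshold, and 0.76 in dcr1D, that of the other features 0.38 in clr4D and 0.58 in dcr1D, and late against early -1.26 for the other features (no longer past the threshold). The cause was not tested. The ratio in ago1D without the times labelled 0, 1 and 2 h was -1.10 and could not pass.

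Small fitted changes turned sign. Aspartate in clr4D was -0.036 with total-count scaling, phenylalanine in ago1D 0.043 with it and 0.041 with no time term, SPMITTRNAMET.02 late in wt 0.13 with it, and valine at 1 h -0.0034 with no filter. Tyrosine in dcr1D was 0.0077 with DESeq2 size factors in edgeR, 0.0061 with no filter, 0.011 with only the 12 libraries compared, 0.008 with DESeq2, 0.030 without the ago1D libraries of 0, 1 and 2 h, 0.10 without the clr4D and dcr1D libraries of 10 h and 0.31 with no time term. Of the late differences from wt, SPMITTRNALEU.02 in clr4D was -3.44 without the 10 h libraries of clr4D and dcr1D, SPMITTRNAMET.01 in dcr1D 0.12 there and 0.050 with total-count scaling, and lysine in ago1D 0.11 with that scaling, 0.32 with time terms and 0.82 without the early ago1D libraries.

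Leaving out each strain (time comparisons) or each time (strain comparisons) in turn gave 0 to 2 tRNAs and 0 to 5 others at 1 h, 0 to 20 tRNAs and 0 to 8 others at 2 h, 0 to 6 tRNAs and 0 to 8 others at 4 h, 6 to 24 tRNAs and 4 to 8 others at 10 h, 0 to 9 tRNAs and 0 to 4 others in ago1D, 0 to 2 tRNAs and 0 others late against early in ago1D, 0 to 18 tRNAs and 0 to 1 others in clr4D, 0 to 8 tRNAs and 0 to 1 others in dcr1D, and 0 to 2 tRNAs and 0 others in wt. At 1 h 0 to 1 tRNA was higher, and at 24 h 5 to 8 others were lower. The ranges for clr4D, dcr1D and wt, and the second one for ago1D, are late against early. They include the fits without 10 h and without 24 h, which leave 1 late library per strain. Counts from those fits are not calls. The upper ends of the tRNA ranges in ago1D, clr4D and wt came from the fit without 10 h. Without 0, 1, 2 or 4 h no tRNA was called in clr4D, as given above.

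The log2 difference of the ratio ran over -0.91 to -0.63 in ago1D and -0.16 to 0.18 in clr4D, that of the tRNA share over -0.017 to 0.15 in clr4D and -0.17 to 0.15 in dcr1D, and that of the other share over -0.31 to 0.061 in clr4D.

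The log2 fold changes of the members that moved least crossed 0 when a strain or time was left out, with -0.13 to 0.16 for aspartate in clr4D, -0.085 to 0.73 for glutamate at 4 h, -0.11 to 0.30 for SPMITTRNALEU.02 at 2 h, -0.52 to 0.27 for phenylalanine in ago1D, -0.20 to 0.20 for tyrosine in dcr1D, -0.31 to 0.32 for valine at 1 h, and -1.30 to 0.32 for SPMITTRNAMET.02 late in wt. The late differences from wt ran over -0.39 to 0.43 for SPMITTRNALEU.02 in clr4D, -1.09 to 2.13 for lysine in ago1D and -1.28 to 0.74 for SPMITTRNAMET.01 in dcr1D.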

Other observations

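The make-up of the mitochondrial tRNA pool changed at 24 h along with its size. The proline tRNA became the most abundant one in clr4D, dcr1D and wt, at 15.2%, 12.05% and 15.5% of mitochondrial tRNA counts, while in ago1D it was the glycine tRNA at 12.7%. Alanine held 1.90% in ago1D, 3.65% in clr4D, 3.91% in dcr1D and 4.92% in wt at 24 h, against 0.328% to 1.44% in the 20 libraries of earlier times, without overlap. SPMITTRNAARG.01 went the other way, with 3.80% to 6.16% at 24 h, against 10.2% to 23.9% at all earlier times. The 3 most abundant tRNAs of a library together held 32.7% to 34.7% of mitochondrial tRNA counts at 24 h, against 36.3% to 52.1% before. These percentages are descriptions of single libraries and were not tested.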
